A study of Mus musculus with 12 samples.

Results

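The 77 genes described here encode the proteins of the cytosolic ribosome. They are the entries of the tables whose symbol is that of a ribosomal protein of the large subunit (Rpl, Rplp; 46 genes) or of the small subunit (Rps, Rpsa; 31 genes), out of 24058 entries in all, and all 77 had a mean of at least 1 FPKM in both experiments and were tested. The cells were BV2, an immortalised mouse microglial line, grown in medium with 5% fetal bovine serum and sorted by flow cytometry; the marker used for sorting is not given in the sources used here. Spi1 encodes PU.1, the transcription factor that microglia and other myeloid cells depend on. In the first experiment a transiently delivered short hairpin RNA against Spi1 (knockdown, 3 libraries) was compared with a scrambled hairpin (scrambled control, 3 libraries). In the second, a transiently delivered cDNA of mouse Spi1 (overexpression, 3 libraries) was compared with an empty frame (empty control, 3 libraries). The 2 experiments share no control library, each has its own control construct, and a difference between them cannot be told apart from the construct or the occasion. Libraries are named below by group and by the number 1 to 3 in their titles.

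Ribosomal proteins assemble with ribosomal RNA in the nucleolus and are needed in near equal amounts, so their mRNAs are among the most abundant and most even of a growing cell. In mammals these mRNAs start with a C followed by a run of pyrimidines, the 5′ terminal oligopyrimidine (TOP) motif, through which mTOR and LARP1 control their translation and stability. Some members also have uses outside the ribosome: Rpl5 and Rpl11 bind Mdm2 when ribosome assembly fails, and Rps27a is made as a fusion with ubiquitin.

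The starts of some members are shown first, because the pyrimidine run is the sequence feature that joins these genes and because PU.1 belongs to the ETS family, whose sites hold the core GGAA. RefSeq promoter windows on GRCm38.p6, from 250 bases before to 50 bases after the start, were matched to 57 of the 77 genes by symbol, in 67 windows. Each line gives 30 bases before and 20 bases from the first transcribed base on, 5′ to 3′, and capitals mark a pyrimidine run of at least 5 bases that covers that first base.
Rpl27a, chr7:109519165-109519214, plus strand: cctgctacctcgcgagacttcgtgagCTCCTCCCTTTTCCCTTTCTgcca
Rps9, chr7:3704011-3704060, plus strand: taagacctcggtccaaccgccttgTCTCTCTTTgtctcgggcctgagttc
Rps6, chr4:86857348-86857397, minus strand: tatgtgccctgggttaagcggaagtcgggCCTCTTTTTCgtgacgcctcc
Rplp2, chr7:141447621-141447670, plus strand: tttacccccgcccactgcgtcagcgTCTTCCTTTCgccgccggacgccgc
Rpl13, chr8:123102320-123102369, plus strand: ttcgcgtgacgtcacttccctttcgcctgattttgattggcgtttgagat
Rps2, chr17:24720033-24720082, plus strand: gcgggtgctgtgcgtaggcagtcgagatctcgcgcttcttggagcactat
Rplp0, chr5:115559437-115559486, plus strand: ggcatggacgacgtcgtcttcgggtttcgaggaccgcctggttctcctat
Rpl27a, Rps9, Rps6 and Rplp2 have such a run at the annotated start, and Rpl13, Rps2 and Rplp0 do not. In Rpl13 and Rps2 the run over that base is 4 bases long. Only the annotated start base was examined, and transcripts can start at a nearby base. A window without the run therefore does not show that the mRNA lacks a TOP motif. Over all member windows, 29.9% had a run of at least 5 pyrimidines over the first base, against 10.1% of all 32851 windows in the table. The letters CTTTCC lay within 30 bases of the start, on either strand, in 19.4% of member windows and 5.54% of all windows. Of ETS-like letters, GGAAGT was present on either strand in 47.8% of member windows and 23.8% of all windows. The longer CCGGAAGT, which contains it, was present in 16.4% against 3.89%. GAGGAAGT, which also contains GGAAGT and is closer to the sites PU.1 prefers, was present in 4.48% against 3.20%. TATAAA was present in 8.96% against 13.6%. These are matches of letters and not measured sites.

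The labels were checked on Spi1. It read 159, 169 and 168 FPKM with the scrambled hairpin and 50.9, 42.4 and 52.3 FPKM in the knockdown, a fold of 0.297 (adjusted p = 0.000697). In the second experiment it read 158, 117 and 131 FPKM in the empty controls and 287, 224 and 206 FPKM with the cDNA, a fold of 1.75 that was not called in the fit without the replicate number (adjusted p = 0.9999) and was called with the number as a block (adjusted p = 0.0357). Depth was 22.3 to 33.1 megareads per library, and a member held 3022 to 67049 reads in a library, so counting error is small beside the spread between libraries. All 8 microglia and macrophage markers were present. Their summed level was 4233 to 5066 FPKM in the scrambled controls, 2680 to 3500 FPKM in the knockdown, 3847 to 5267 FPKM in the empty controls and 4263 to 5776 FPKM with overexpression. Markers of neurons, astrocytes, oligodendrocytes, fibroblasts and epithelial cells summed to under 1 FPKM in every library. T cell markers summed to 5.95 to 10.1 FPKM and B cell markers to 0.117 to 1.68 FPKM. Of the endothelial markers 1 of 6 was above 1 FPKM and 1 was at 0 in every library, and their sum was 57.3 to 61.7 FPKM with the scrambled hairpin and 74.3 to 78.9 FPKM in the knockdown. The part of these marker differences in the results below was not tested. In RNA from many cells, a change in the mix of cells and a change in RNA per cell cannot be told apart.

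FPKM is reads per kilobase of counted gene length and per megaread, so levels can be compared between genes only as far as the counted length is right. Ribosomal protein mRNAs held 11.98%, 11.09% and 12.55% of the summed FPKM with the scrambled hairpin and 12.74%, 12.20% and 13.63% in the knockdown. The group means were 11.9% ± 0.737 (SD, n = 3) and 12.9% ± 0.719 (SD, n = 3), and the groups overlapped. In the second experiment the share was 10.55%, 13.97% and 12.20% in the empty controls and 10.39%, 13.75% and 11.36% with Spi1 overexpressed, with means of 12.2% ± 1.71 (SD, n = 3) and 11.8% ± 1.73 (SD, n = 3). Within that experiment the libraries numbered 2 were the highest and those numbered 1 the lowest in both groups, a spread larger than any difference between the groups. As shares of reads rather than of FPKM, the members took 3.70% to 5.31% of a library.

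**Figure D1:**
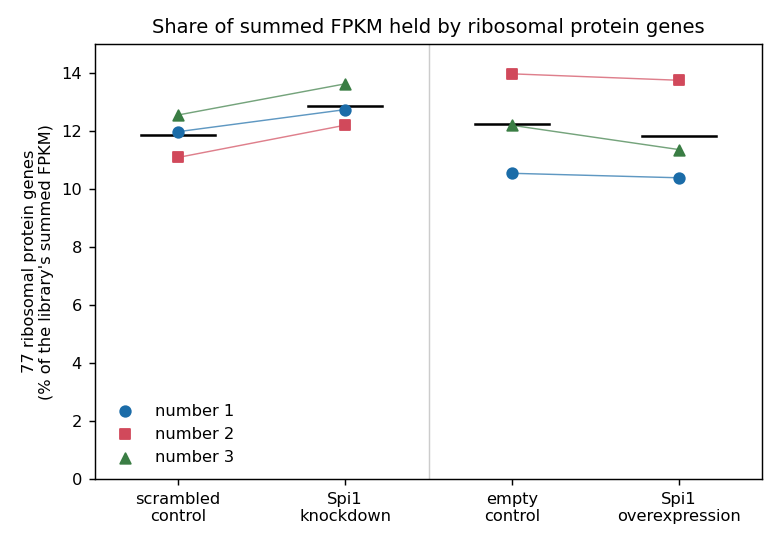
Share of each library's summed FPKM held by the 77 ribosomal protein genes (y axis, percent) in the 4 groups; points are libraries, shape and colour give the number in the title, thin lines join libraries of the same number within an experiment and bars are group means. Each knockdown library lies above the scrambled control of its number, and in the second experiment the spread between numbers, from 10.39% to 13.97%, exceeds the difference between the groups.

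The most abundant members by mean FPKM over the 12 libraries were Rplp1 at 1997, Rpl12 at 1807 and Rps18 at 1493. Rplp1 is one of the acidic proteins of the stalk that recruits elongation factors, Rpl12 sits at the base of that stalk, and Rps18 is a protein of the head of the small subunit. The lowest were Rps15a at 79.2, Rpl22 at 107 and Rpl15 at 175. Even the lowest lay above 94.9% of all entries detected. The low values went with long counted lengths: 5134 bases for Rps15a, 2497 for Rpl22 and 1841 for Rpl15, against a median of 703 bases over the members and 468 for Rplp1. Near-identical copies are a further limit. The entry Rpl34-ps1 had a mean of 931 FPKM beside 561 for Rpl34, and Rps27rt had 576 beside 348 for Rps27, so the values of Rpl34 and Rps27 are uncertain.

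In the knockdown, 1 of the 77 members was higher and 1 was lower at an adjusted p under 0.05 in limma, against 17.4% of all 11214 genes higher and 8.86% lower. The gene that fell was Rps29, a small zinc-binding protein of the head of the 40S subunit. The gene that rose was Rpl27a, a protein of the 60S subunit. The other 75 were not called, but 72 of the 77 fold changes were above 0. The median fold change, on the log2(FPKM + 1) scale used throughout, was 0.141, and that of all genes tested was above 0 as well, at 0.072. Members moved together within a library, as described below, so these are not 72 separate observations. When libraries were scaled by the median ratio over all genes, 60 of 77 were above 0, with a median of 0.060. Scaled to an equal median member, 41 of 77 were above 0, but that setting places the median member near 0 by construction. Leaving out 1 library moved the unscaled median of 0.141. It was 0.077 without scrambled control 2 and 0.090 without knockdown 3, where all genes were at 0.074 and 0.068. It was up to 0.184 without one of the others. The median was alike for the large subunit (0.143) and the small subunit (0.141).

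Rps29 read 776, 747 and 795 FPKM with the scrambled hairpin and 573, 489 and 604 FPKM in the knockdown. All knockdown libraries lay below all controls. The fold change was −0.48 ± 0.09 (log2, SE), with an adjusted p of 0.00998. In the second experiment Rps29 read 754, 855 and 835 FPKM in the empty controls and 834, 970 and 756 FPKM with Spi1 overexpressed, and these groups overlapped. The knockdown libraries were thus the low ones among all 12. The log2 distance of Rps29 from the median of the 77 members was taken in each library, and its mean over the 12 libraries subtracted. On this scale Rps29 was at −0.44, −0.59 and −0.48 in the knockdown and between −0.05 and 0.46 in the other 9 libraries. Its gene is on chr12:69157722-69159186 of GRCm38 (mm10), minus strand, and in GENCODE M21 shares no exon bases with another gene. Its counted length was 390 bases.

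Rpl27a read 385, 338 and 394 FPKM with the scrambled hairpin and 541, 490 and 564 FPKM in the knockdown. All knockdown libraries lay above all controls. The fold change was 0.51 ± 0.09 (log2, SE), with an adjusted p of 0.00761. In the second experiment Rpl27a read 406, 597 and 491 FPKM in the empty controls and 379, 570 and 434 FPKM with Spi1 overexpressed. On the scale used above for Rps29, centred on the gene's own mean, the scrambled controls were the libraries that stood apart. They were at −0.22, −0.29 and −0.27 (log2), and the other 9 libraries, knockdown included, were between 0.01 and 0.17. No untreated cells are among the libraries, so which of the groups departs from untreated cells was not tested. The gene lies on chr7:109519147-109522367, plus strand, and Snora3, a small nucleolar RNA, shares exon bases with it. The counted length was 1112 bases, above the members' median of 703, and what part of its reads came from that shared stretch was not tested.

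**Figure D2:**
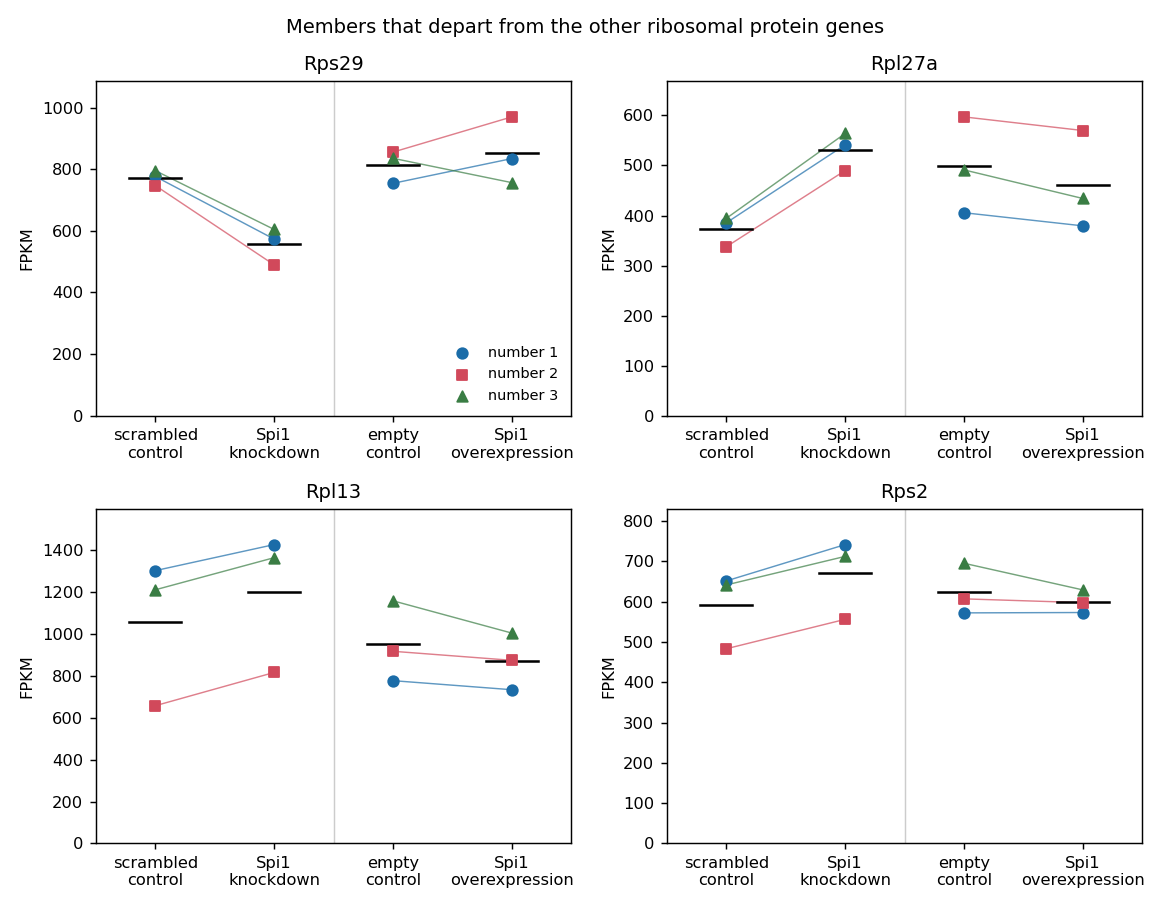
FPKM (y axis) of Rps29, Rpl27a, Rpl13 and Rps2 in the 4 groups; points are libraries with shape and colour by number, thin lines join libraries of the same number within an experiment and bars are group means. Rps29 is low in the 3 knockdown libraries, Rpl27a is lower in the 3 scrambled controls than in the 3 knockdown libraries, and Rpl13 and Rps2 are low in the libraries numbered 2 of the knockdown experiment.

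The numbers in the titles paired the libraries, and with the number as a block 38 members were higher and 1 was lower in the knockdown, against 30.6% and 14.7% of all genes. Of the higher ones 25 belong to the large subunit and 13 to the small subunit. The count rested on the choice of libraries: without number 1 it was 19 higher (25% of all genes), without number 2 it was 1 (7.09%), and without number 3 it was 2 (20.2%). It also rested on scaling. When libraries were scaled by the median ratio over all genes, the block called 3 members higher and 3 lower, against 20.1% and 21.8% of all genes, and the median member was at 0.060 where all genes were at 0.000. In each of the 3 same-numbered pairs the knockdown library was the higher one for 67 members and the lower one for 4, against 47.3% and 24.6% of all genes. Without overlap between groups, 13 members were above and 1 below the controls, against 30.3% and 15.1% of all genes.

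Among the members called higher with the block were Rpl22, Rpl11, Rpl3, Rpl36 and Rpl10a. Rpl22, which also binds viral and cellular RNA outside the ribosome, read 101, 92.2 and 106 FPKM with the scrambled hairpin and 115, 110 and 128 FPKM in the knockdown (log2 0.24 ± 0.08, SE; adjusted p = 0.0711 without the block and 0.0120 with it). Every knockdown library was above every control. Rpl3, which lines the peptidyl transferase region, read 666, 667 and 826 against 841, 762 and 954 FPKM, with overlap (log2 0.25 ± 0.12; adjusted p = 0.156 and 0.0164). Under median-ratio scaling with the block, Rpl22 (adjusted p = 0.0427) and Rpl3 (0.0430) were called.

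The members that lay below 0 beside Rps29 were Rps9, Rpl5, Rps27a and Rpl9, the last at −0.02 ± 0.07. Rps9, a protein that takes part in early small subunit assembly, read 1205, 1198 and 1306 FPKM with the scrambled hairpin and 1081, 1071 and 1260 FPKM in the knockdown (log2 −0.12 ± 0.08; adjusted p = 0.305). Rpl5, which carries 5S ribosomal RNA into the large subunit, read 374, 327 and 399 against 339, 311 and 376 FPKM (log2 −0.10 ± 0.10; adjusted p = 0.486). Rps27a read 1102, 926 and 1054 against 991, 904 and 1042 FPKM (log2 −0.07 ± 0.09; adjusted p = 0.593). In Rps9, Rpl5 and Rps27a the groups overlapped and each knockdown library was below the control of its number. When each library was scaled so that the median member was equal, a setting chosen after the data were seen, Rpl27a was still higher and Rps29 lower, and with the block Rpl5 (adjusted p = 0.0154), Rps9 (0.0158) and Rps27a (0.0263) were lower too, against 13.1% of all genes higher and 25.6% lower under that setting.

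**Figure D3:**
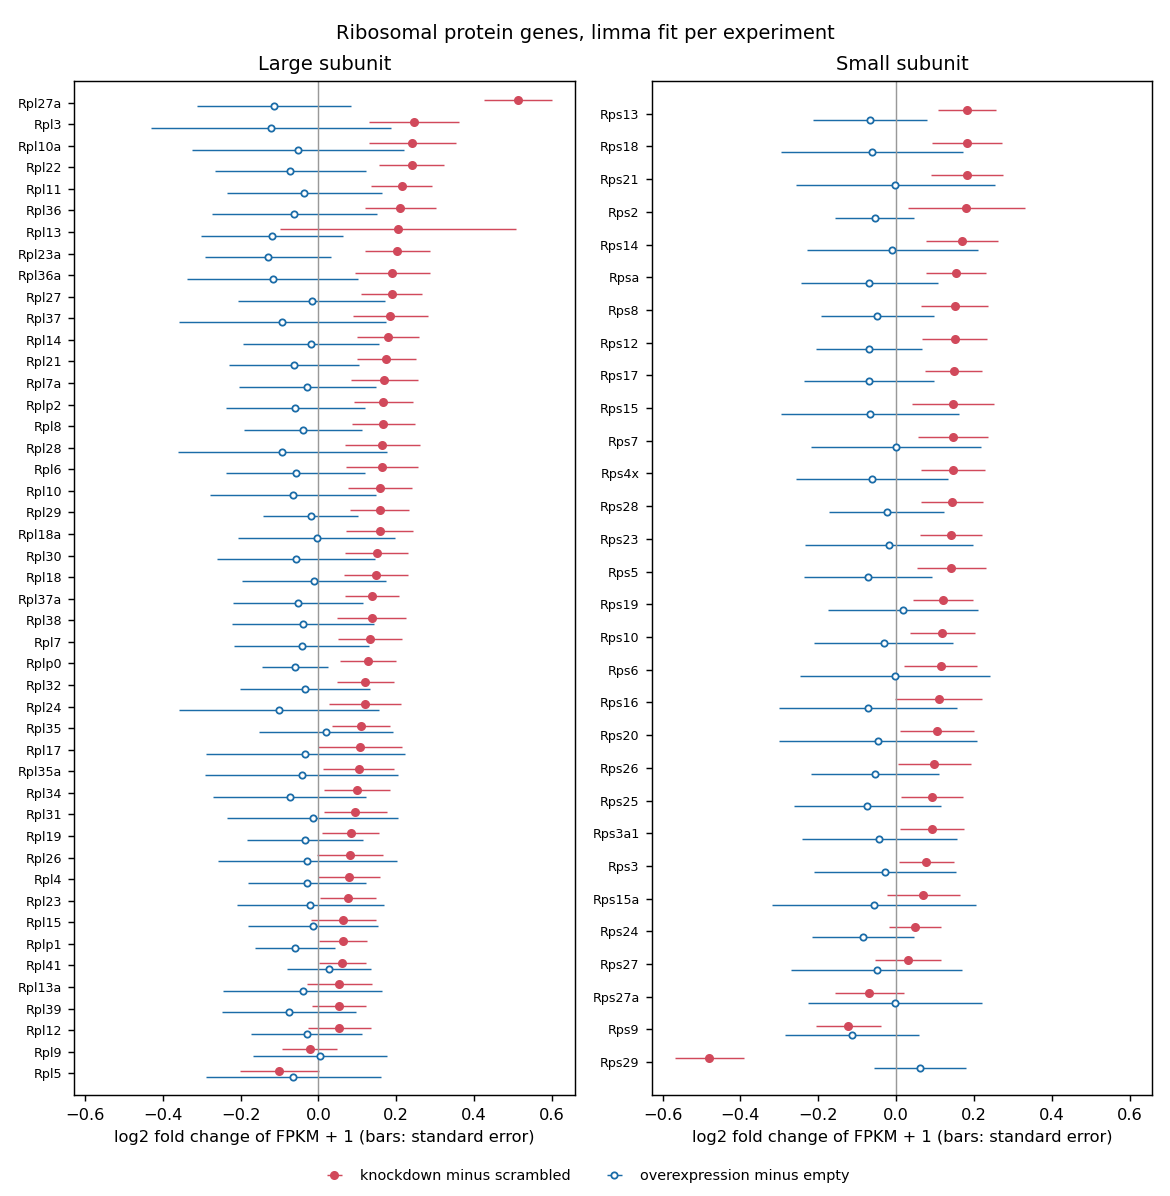
Log2 fold change of FPKM + 1 (x axis; bars are standard errors) for 46 large subunit genes (left) and 30 small subunit genes (right), each sorted by the knockdown value; filled red points are knockdown minus scrambled control and open blue points are overexpression minus empty control. Most knockdown points lie a little above 0 around a median of 0.141, Rpl27a at 0.51 and Rps29 at −0.48 lie apart, and the blue points lie near −0.051 with wider bars.

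Members were also read by role. The stalk proteins that bind elongation factors, Rplp0, Rplp1 and Rplp2, had knockdown fold changes of 0.13, 0.06 and 0.17 (log2). None was called without the block and 1 of 3, Rplp2 (adjusted p = 0.0269), was called with it. Rplp0, which is often used as a reference gene, read 1327, 1209 and 1357 FPKM with the scrambled hairpin and 1372, 1386 and 1491 FPKM in the knockdown, with no overlap. Of the pair that carries 5S RNA and binds Mdm2, Rpl11 read 908, 865 and 990 against 1027, 1034 and 1143 FPKM, with no overlap (log2 0.21 ± 0.08; adjusted p = 0.0817, with the block 0.0158). Its partner Rpl5 had the opposite sign, as given above.

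The list named for the rim of the tunnel through which the new protein leaves the ribosome had 12 members, whose places were not checked. None was called without the block and 4 were higher with it. The head and mRNA channel of the small subunit was listed with 7 tested members, of which 0 were called without the block and 3 were higher with it. Of the 19 members whose human counterparts are mutated in Diamond-Blackfan anaemia, a failure of red cell production, 1 was lower (Rps29) and 0 higher without the block, and 5 were higher and 1 lower with it. The lists share members, and the background counts of 17.4% and 8.86% (30.6% and 14.7% with the block) apply to each.

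Other members with a named role stayed within a narrow range in the knockdown, and none was called without the block. Rps6, the protein that S6 kinase phosphorylates, read 436, 400 and 482 FPKM with the scrambled hairpin and 463, 443 and 520 FPKM in the knockdown (log2 0.11 ± 0.09; adjusted p = 0.396). Rps19, the gene most often mutated in Diamond-Blackfan anaemia, was at 0.12 ± 0.08 (adjusted p = 0.282). Rps3, which forms part of the mRNA entry and also acts in DNA repair, was at 0.08 ± 0.07 (adjusted p = 0.439). Rpl13a, known for an interferon-gamma dependent block of translation in macrophages, was at 0.05 ± 0.08 (adjusted p = 0.655). Rpl41, the smallest ribosomal protein, was at 0.06 ± 0.06 (adjusted p = 0.475). Close to the members' median of 0.141 lay Rpl10, which completes the large subunit, at 0.16 ± 0.08, and Rpl38, linked to translation of Hox mRNAs, at 0.14 ± 0.09. Rpsa, also known as the laminin receptor, was at 0.15 ± 0.08. Rpl10, Rpl38 and Rpsa were called with the block, with adjusted p of 0.0384, 0.0471 and 0.0354. Under median-ratio scaling with the block they were not called.

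Members with and without the pyrimidine run had overlapping values in the knockdown. The 20 matched members with a run had a median fold change of 0.112 (log2), from −0.12 for Rps9 to 0.51 for Rpl27a, and the 37 matched members without one had a median of 0.142, from −0.10 to 0.24. No test was made of this split, which rests on the annotated start bases alone and does not part members with a TOP motif from members without.

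With Spi1 overexpressed, 0 of the 77 members were called in limma, as were 0 of all 11217 genes (0% called), and 0 members had an unadjusted p under 0.05. Fold changes ran from −0.13 for Rpl23a to 0.06 for Rps29, and the median was −0.051 (log2) against −0.014 for all genes. All 77 members overlapped between the groups, where 1.66% of all genes were above and 2.4% below the controls without overlap. With the block 0 members were called, against 0.116% of all genes, and 6 had an unadjusted p under 0.05. In same-numbered pairs 27 members were lower in all 3 and 0 higher in all 3, against 23.8% and 14% of all genes. The standard error of a member was large here, with a median of 0.188 against 0.083 in the knockdown, so without the block a change as large as the knockdown's median of 0.141 lies within 1 standard error. Leaving out 1 library turned the sign of the median: it was 0.086 without empty control 2 and 0.071 without overexpression 1.

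Rpl23a, a protein of the tunnel rim, read 915, 1229 and 1098 FPKM in the empty controls and 840, 1170 and 960 FPKM with overexpression (log2 −0.13 ± 0.16; adjusted p = 0.9999). Rpl3 read 612, 1185 and 811 against 590, 1094 and 708 FPKM (log2 −0.12 ± 0.31), and Rpl13 read 777, 917 and 1158 against 734, 874 and 1004 FPKM (log2 −0.12 ± 0.18). In all 3 genes each overexpression library was below the control of its number, and the groups overlapped. Rpl35 at 0.02 ± 0.17 and Rpl41 at 0.03 ± 0.11 were the highest after Rps29.

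The effects of overexpression and knockdown were compared directly in 1 fit over 12 libraries. Without the block, 0 members differed in either direction, against 1.9% of genes higher and 2.94% lower, and 2 members had an unadjusted p under 0.05. The largest differences, overexpression minus knockdown, were 0.54 ± 0.15 (log2) for Rps29 (adjusted p = 0.0660) and −0.63 ± 0.23 for Rpl27a (adjusted p = 0.146). With the block, Rps29 was called higher (adjusted p = 0.00658) and 33 members lower, Rpl27a among them (adjusted p = 0.000649), against 12.9% and 28.6% of all genes. Without number 2 that block called 0 members higher and 2 lower, against 5.13% and 8.73% of all genes. Rpl23a at −0.33 ± 0.19, Rpl22 at −0.31 ± 0.22 and Rpl36a at −0.31 ± 0.26 were called with the block (adjusted p of 0.00407, 0.00486 and 0.00813) and not without it.

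Differences between libraries of a group ran across nearly all members at once and followed the number in the title. In the knockdown experiment the number 2 library was the lowest of its group for 75 of 77 members in the scrambled controls and for 64 of 77 in the knockdown. In the second experiment number 2 was instead the highest, for 75 of 77 members in the empty controls and again for 75 of 77 with overexpression. Number 1 was the lowest there, for 76 and 72. Empty control 2 exceeded empty control 1 by a median of 0.53 (log2) over the members, from 0.09 for Rps2 to 0.95 for Rpl3, and all 77 were higher, while the median of all genes was −0.07. Overexpression 2 exceeded overexpression 1 by 0.53, again in all 77, with a median of −0.08 over all genes. Of the listed elongation factors and other TOP mRNAs, number 2 was the highest for 23 of 24 in the empty controls and 21 of 24 with overexpression, against 30.5% and 28.6% of all genes. Of the listed initiation factors it was the highest for 14 and 13 of 33. Eef1a1, the factor that brings aminoacyl-tRNA to the ribosome, read 2239, 4506 and 3212 FPKM in the empty controls and 2254, 4456 and 2869 FPKM with overexpression. Tpt1, another TOP mRNA, read 958, 1399 and 1247 against 936, 1420 and 1186 FPKM. The ferritin light chain Ftl1, no translation gene, read 8206, 13377 and 7950 against 8969, 15267 and 8770 FPKM. What the numbers stand for is not given in the labels, and their part in the member values was taken up by the block.

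**Figure D4:**
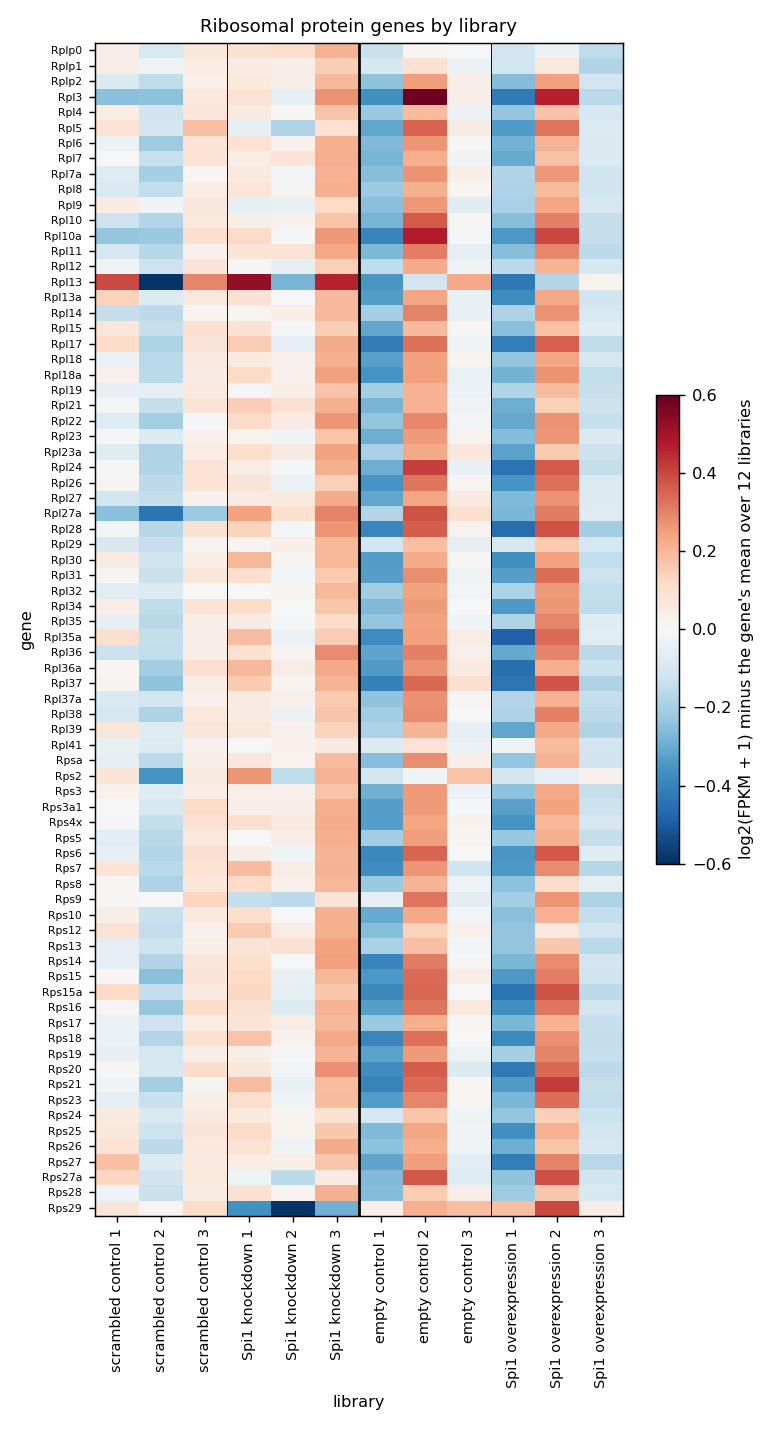
Log2(FPKM + 1) of each of 76 ribosomal protein genes minus its mean over the 12 libraries (colour scale, red above and blue below the mean); rows are genes, columns are libraries, and the thick line parts the experiments. Columns are nearly uniform, with empty control 2 and overexpression 2 red and number 1 of both blue, while the rows of Rps29, Rpl13 and Rps2 break the pattern.

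A few members departed from this common movement. Over the 12 libraries the range of a member's distance from the members' median was 0.206 (log2) for the median member, and 4 members exceeded 0.5: Rps29 (1.05), Rpl13 (0.92), Rpl3 (0.54) and Rps2 (0.52). Rps2 was singled out after its values were seen. Rpl13, a large subunit protein, read 1302, 657 and 1211 FPKM with the scrambled hairpin and 1426, 816 and 1364 FPKM in the knockdown. The library numbered 2 was far below its neighbours in both groups. On the scale used above for Rps29, centred on the gene's own mean, Rpl13 was at −0.44 and −0.27 (log2) there. It was at 0.24 to 0.46 in the other 4 libraries of that experiment. In the second experiment it was at −0.37 and −0.46 in number 2, at −0.07 and −0.15 in number 1 and at 0.22 and 0.15 in number 3. Rps2, which shapes the mRNA entry channel, read 651, 483 and 641 FPKM with the scrambled hairpin and 741, 556 and 712 FPKM in the knockdown. It too was low on that scale in number 2 of all 4 groups (−0.20, −0.15, −0.29 and −0.33) and from −0.0019 to 0.19 in the other 8 libraries. Rplp0 moved little on that scale in the first experiment, at 0.02 to 0.11. In the second it was at −0.25 and −0.32 in number 2 and at 0.15 and 0.17 in number 1. Rpl13 (chr8:123102350-123105244, plus strand) shares exon bases with Snord68 and Mir7079, which lie on the same strand. Rps2 (chr17:24718116-24721929, plus strand) shares them with Snora64 on the same strand and with the antisense gene Snhg9. The library kit does not mark strand, so antisense reads cannot be told apart either. The part of these neighbours in the values was not tested. Among all members, 37 share exon bases with another gene and 30 have a small nucleolar RNA within the gene.

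The genes around the ribosome were read from 6 lists in the knockdown, against the same background as the members: 17.4% of all genes higher and 8.86% lower without the block, and 30.6% and 14.7% with it. Under median-ratio scaling without the block, the background was 11.1% higher and 13% lower. With the block it was 20.1% and 21.8%. Of 74 ribosome biogenesis factors, the nucleolar proteins that process ribosomal RNA and assemble subunits, 25 were higher and 0 lower without the block, and 52 higher and 0 lower with it, with a median of 0.234 (log2). Whether this list differs from the ribosomal proteins was not tested. Lyar, a nucleolar factor of ribosomal RNA processing, read 26.0, 27.3 and 26.8 FPKM with the scrambled hairpin and 37.2, 40.6 and 36.7 FPKM in the knockdown (log2 0.50 ± 0.06; adjusted p = 0.00380). Heatr3, which imports Rpl5, was at 0.56 ± 0.11 (adjusted p = 0.0110), Wdr75, a factor of ribosomal RNA transcription and processing, at 0.46 ± 0.09 (0.0112), and Fbl, the methyltransferase fibrillarin, at 0.47 ± 0.10 (0.0137). Under median-ratio scaling the list had 11 of 74 higher and 0 lower, and these 4 genes were still called. With that scaling and the block it had 38 higher and 1 lower. Set side by side across the 2 tables, with no test, the mean of the empty controls was above that of the scrambled controls for 71 of 74 factors and for 60.7% of all genes. Lyar read 39.3, 31.3 and 39.4 FPKM in the empty controls.

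Ribosomal protein genes outside the symbol rule, such as paralogs and fusion genes, had 2 of 8 tested higher and 0 lower. With the block they had 4 and 1, and under median-ratio scaling 2 and 1, with or without the block. The higher ones without the block were Rps27l, a paralog of Rps27 that p53 induces (105, 116 and 109 against 139, 149 and 148 FPKM; log2 0.40 ± 0.07, adjusted p = 0.00725), and Rpl36al, a paralog of Rpl36a (288, 278 and 294 against 354, 342 and 347 FPKM; log2 0.28 ± 0.06, adjusted p = 0.0146). For both, every knockdown library was above every control. Reads of Rps27l and Rpl36al may be shared with their parent genes.

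Elongation factors and other TOP mRNAs had 6 of 24 higher and 1 lower, with the block 11 and 1, and under median-ratio scaling 5 and 1. With that scaling and the block they had 6 and 2. Snhg5, a host of small nucleolar RNAs, was at 0.64 ± 0.07 (adjusted p = 0.00239), Npm1, the nucleolar chaperone nucleophosmin, at 0.34 ± 0.07 (0.0116), and Nap1l1, a histone chaperone, at 0.31 ± 0.06 (0.00995). Vim, the intermediate filament vimentin, fell, at −0.31 ± 0.06 (0.00967). Initiation factors had 7 of 33 higher and 2 lower, and 21 and 3 with the block, but only 1 higher and 2 lower under median-ratio scaling. With that scaling and the block they had 7 and 3. Eif2b2, a subunit of the factor that reloads eIF2 with GTP, read 53.5, 53.8 and 53.2 FPKM with the scrambled hairpin and 32.5, 30.9 and 32.0 FPKM in the knockdown (log2 −0.73 ± 0.06; adjusted p = 0.00115). Eif4e, the cap-binding protein, fell as well, at −0.34 ± 0.06 (0.0101), while Eif4h, a cofactor of the Eif4a helicase, at 0.26 ± 0.06 (0.0252), and Eif2b3, another subunit of the same exchange factor as Eif2b2, at 0.35 ± 0.09 (0.0280), rose. Under median-ratio scaling Eif2b3 was the higher one still called (adjusted p = 0.0469), and Eif4h was not (0.0614).

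Regulators of ribosome genes in the mTOR, LARP1 and MYC pathways had 3 of 31 higher and 1 lower, and 7 and 2 with the block. Under median-ratio scaling these became 1 higher and 2 lower, and 1 and 5 with the block, and the list's median went from 0.024 to −0.046 (log2). The lower one was Eif4ebp2, an inhibitor of the cap-binding protein that mTOR switches off, with 25.1, 28.7 and 30.1 FPKM with the scrambled hairpin and 16.2, 13.9 and 16.0 FPKM in the knockdown (log2 −0.82 ± 0.09; adjusted p = 0.00280). The higher ones were Gabpa, an ETS factor that binds many housekeeping promoters, at 0.38 ± 0.07 (0.00882), Cnbp, a nucleic acid-binding protein that acts on TOP mRNAs, at 0.23 ± 0.07 (0.0421), and Myc, at 0.31 ± 0.09 (0.0459) and under 2 FPKM in every library. Under median-ratio scaling Gabpa was called (adjusted p = 0.0172), and Cnbp (0.130) and Myc (0.0816) were not.

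Genes of ribosome quality control had 5 of 22 higher and 0 lower, with the block 10 and 2, and under median-ratio scaling 1 and 0 (7 and 3 with that scaling and the block). The 5 were led by G3bp1, a stress granule protein, at 0.50 ± 0.10 (0.0140), Zak, a kinase that senses stalled ribosomes, at 0.47 ± 0.11 (0.0224), Gcn1l1, a sensor of collided ribosomes, at 0.28 ± 0.07 (0.0307), and Usp10, a deubiquitinase that rescues small subunit proteins, at 0.35 ± 0.10 (0.0337). Under median-ratio scaling G3bp1 was still called (adjusted p = 0.0189), and Zak (0.0508), Gcn1l1 (0.0694) and Usp10 (0.0674) were not.

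All of these list counts without the block were lower or equal when 1 of the 6 libraries was left out, except 7 elongation and TOP mRNAs without knockdown 1 and 1 biogenesis factor called lower without scrambled control 3. Biogenesis factors then had 6 to 17 higher, initiation factors 0 to 5, elongation factors and TOP mRNAs 3 to 7, regulators 1 to 2 and quality control genes 0 to 5, against 8.12% to 13.5% of all genes. With Spi1 overexpressed, 0 genes of any of these 6 lists were called, with or without the block.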

How the data were processed

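PolyA RNA of 12 BV2 libraries was sequenced in single-end reads of 100 bases. The deposited data are 2 tables of FPKM, whose unit was read from the values; per the submitters' processing notes, CASAVA 1.8.2, bcl2fastq, STAR 2.5.2a, featureCounts, DESeq2 1.14 and mm10 were used, in roles not given there. The annotation is not given in the sources used here. Reads and counted lengths were recovered from the steps of the values for 17838 of 17838 genes above 0. Entries sharing a symbol (4) were left out.

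Each experiment was fitted with limma 3.58.1 (R 4.3.3) on log2(FPKM + 1) for genes averaging 1 FPKM or more, with Benjamini-Hochberg adjustment over all genes tested and a threshold of 0.05, and the scripts were tested on simulated data. The difference of effects was an interaction over 12 libraries. As the unit is FPKM, the main fits used no count model, and limma-voom on recovered reads was run as an alternative. Libraries of the same number deviated together (correlations of 0.397, 0.540 and 0.345 in the knockdown experiment and 0.791, 0.845 and 0.513 in the second), each above 0.1, and a fit with this number as a block is reported wherever it alters a call. Separate cultures are not stated in the labels, and the p-values therefore cover the spread among these libraries alone, part of which may be technical.

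The members and lists were chosen with earlier results of these data known. Members were named for a listed role, for the smallest p among called members, for the 3 largest rises and falls in each comparison, and for the highest and lowest levels, and up to 4 called genes were named from each list. The values of 1 member are counted in the totals and not reported here. Alternatives were another pseudocount (0.1), no filter, a filter of 5 FPKM, median-of-ratios, TPM and member-median scaling, trend and robust options, limma-voom on recovered reads, the block, and leaving out libraries. Positions are from GENCODE M21 and promoter windows from RefSeq.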

Additional observations from a re-analysis of the deposited data

Results flagged for a closer look

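No ribosomal protein gene was set apart by the interaction test (the overexpression effect less the knockdown effect) at an adjusted p under 0.05 without the replicate block. Among the other named genes 6 were, against 1.9% of all genes higher and 2.94% lower. These genes had been named for a call in the knockdown, whose effect is part of the difference. Overexpression called 0 of 11217 genes. A call in the knockdown and not in overexpression thus followed from how the genes were chosen. The difference was 0.76 ± 0.13 (log2, SE; adjusted p = 0.0123) for Eif2b2, whose levels in the empty controls were 49.0, 58.4 and 54.5 FPKM, like those of the scrambled controls. It was 0.82 ± 0.20 (adjusted p = 0.0419) for Eif4ebp2, with 30.9, 22.6 and 27.4 FPKM in the empty controls. The other 4 had the opposite sign: −0.41 for Gabpa (adjusted p = 0.0387), −0.36 for Nap1l1 (0.0387), −0.40 for Npm1 (0.0495) and −0.50 for Wdr75 (0.0498). In these 4 the empty controls had levels above the scrambled controls. Npm1 read 530, 534 and 551 FPKM in the scrambled controls, 638, 710 and 702 FPKM in the knockdown and 624, 675 and 616 FPKM in the empty controls. Under median-of-ratios scaling Eif2b2 (adjusted p = 0.0161) and Eif4ebp2 (0.0151) were called, and Gabpa (0.0561), Wdr75 (0.0573), Nap1l1 (0.0888) and Npm1 (0.190) were not.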

How the results depend on the processing

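Rps29 kept a negative and Rpl27a a positive knockdown fold change under every alternative, from −0.61 to −0.39 (adjusted p from 4.79e-05 to 0.0635) and from 0.38 to 0.57 (adjusted p from 8.14e-06 to 0.0635). Both calls were lost only where both libraries of a number were left out without the block, numbers 1, 2 and 3 for Rps29 and numbers 1 and 3 for Rpl27a, which leaves 2 libraries a group. Counts of members called higher in the knockdown are given with the share of all genes. They were 38 with the replicate block (30.6%) and 2 with limma-voom (19.4%). They were 3 with median-of-ratios scaling and the block (20.1%) and 53 with limma-voom and the block (34.1%). With the block they were 19 without number 1 (25%) and 2 without number 3 (20.2%). Without the block, leaving out libraries or numbers gave 0 to 2 (2.2% to 13.5%). Counts lower were 4 with member-median scaling and the block (25.6% of all genes). They were 3 with median-of-ratios scaling (21.8%) or limma-voom (17.2%) and the block, and 0 to 1 without libraries (1.8% to 6.97%). With overexpression limma-voom with the block called 2 lower, Rpl23a (adjusted p = 0.0365) and Rpl3 (0.0497), against 322 of all 11217 genes. In the difference of effects the block called 1 higher and 33 lower, against 12.9% and 28.6% of all genes. Member-median scaling with the block called 2 and 1, against 2138 and 888 of 11233 genes. Median-of-ratios scaling with the block called 1 and 6, against 2095 and 2015 of 11213 genes. Limma-voom with the block called 1 and 54, against 1669 and 3546 of 11224 genes. The block gave 1 higher and 23 lower without number 1, against 1181 and 2200 of 11215 genes. It gave 0 and 2 without number 2, against 5.13% and 8.73% of all genes. It gave 1 and 4 without number 3, against 823 and 2050 of 11203 genes. Without the block, leaving out libraries gave 0 to 1 higher. The 1 came without overexpression 3, where 161 of 11213 genes were higher.

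The knockdown median of the members was 0.0076 under member-median scaling, which sets it near 0 by construction and moves the median of all genes from 0.072 to −0.046, and in the difference of effects from −0.088 to 0.064. The overexpression median was −0.20 to 0.086 when libraries were left out, and the difference in share of summed FPKM, overexpression minus empty control, was −1.36 to 0.462 percentage points. Uncalled knockdown fold changes near 0 turned sign: median-of-ratios scaling gave −0.027 for Rpl13a, −0.020 for Rpl41, −0.019 for Rplp1 and −0.0036 for Rps3, and member-median scaling gave −0.080, −0.072, −0.071 and −0.056 for these, −0.0068 for Rplp0, −0.014 for Rps19 and −0.019 for Rps6, with or without the block. When libraries were left out, the knockdown values were −0.11 to 0.46 for Rpl13 and −0.0066 to 0.10 for Rpl13a. The overexpression values were −0.25 to 0.033 for Rpl13, −0.37 to 0.13 for Rpl3, −0.12 to 0.14 for Rpl35, −0.058 to 0.095 for Rpl41 (−0.0094 with the block and without number 2) and −0.035 to 0.16 for Rps29. The difference of effects was −0.14 to 0.20 for Rpl5 (−0.0019 with the block and without number 1) and −0.12 to 0.25 for Rps27a. Apart from what the construction of a setting shows, the cause of these changes was not tested. With member-median scaling and no block, 0 biogenesis factors, 0 initiation factors and 0 quality control genes were called higher in the knockdown, against 3.95% of all genes. Among the named genes of the lists around the ribosome, Eif2b2, Eif4ebp2 and Snhg5 kept their knockdown call under all 24 alternatives. Cnbp lost it under 16, Myc under 16 of the 23 in which it was tested, and Eif4h under 12. Member-median scaling, the block combined with another setting and the block without a number were chosen after seeing the data. With 3 libraries a group, precision is set by the spread between libraries and not by depth.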
